A study of Mus musculus with 39 samples.

Results

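The cytosolic ribosome of the mouse testis was followed through its 84 protein genes, 52 of the large subunit (Rpl genes with Rplp0, Rplp1 and Rplp2) and 32 of the small subunit (Rps genes with Rpsa). They were chosen by gene symbol, a rule that uses no measured value, though earlier results of these data were known. The symbols came from the 32285 genes of 2 single-cell libraries of dissociated whole testis, and all 84 were measured. The choice takes in the standard genes and their related copies alike, among them Rpl10l, Rpl39l, Rpl36al, Rpl22l1, Rps27l, Rpl3l and Rpl7l1. One of the libraries came from a control with the genotype Kdm6a fl/y; Cre- and the other from a conditional knockout (cKO) with the genotype Kdm6a fl/y; Ddx4-Cre+. Both genotypes therefore carry the floxed allele of Kdm6a (also called Utx), an X-linked gene for an H3K27 demethylase. The Ddx4 promoter drives Cre in germ cells, so somatic cells of the cKO testis should keep the intact allele. The labels give neither the age nor the number of animals behind each library. Open chromatin (ATAC-seq) and H3K27me3 (CUT&Tag, a method that cuts and tags DNA at an antibody's target) came from sorted cKIT+ spermatogonia of the same genotypes, with 2 control and 3 cKO libraries for each assay and 1 IgG library of the control genotype.

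Each ribosome holds a single copy of nearly every ribosomal protein, so these genes are transcribed at high and related levels in most cells, and their messages begin with a pyrimidine tract through which the TOR pathway sets their translation. In the male germ line the X chromosome is silenced when spermatocytes reach pachytene, and several X-linked ribosomal protein genes have autosomal copies, made by reverse transcription of their messages, that are active in the testis. Rpl10l and Rpl39l are the best known of these, and the loss of either impairs spermatogenesis in mice.

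The stretches around the annotated start sites of the X-linked members and their autosomal partners are given first, because the results turn on those pairs. They run from 90 bases before the RefSeq start through the first 30 transcribed bases on the build GRCm38.p6, 5′ to 3′ on the gene's strand. Capitals mark 4 motifs where they lie wholly inside the stretch on either strand: CCGGAAG (the core bound by ETS factors), TCTCGCGA (a palindromic element of housekeeping promoters, which overlaps its own reverse), CCTTTCC (a pyrimidine stretch) and TATAAA (the TATA box).
Rpl10, chrX:74270726-74270845, plus strand: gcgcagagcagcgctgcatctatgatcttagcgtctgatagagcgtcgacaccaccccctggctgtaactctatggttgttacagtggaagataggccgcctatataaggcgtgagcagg
Rpl10l, chr12:66284372-66284491, minus strand: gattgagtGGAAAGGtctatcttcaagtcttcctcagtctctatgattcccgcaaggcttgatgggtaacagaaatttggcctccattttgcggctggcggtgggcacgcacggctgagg
Rpl39, chrX:37085193-37085312, minus strand: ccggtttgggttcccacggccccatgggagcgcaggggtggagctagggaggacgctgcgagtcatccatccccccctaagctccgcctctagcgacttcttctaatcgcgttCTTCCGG
Rpl39l, chr16:10170138-10170257, plus strand: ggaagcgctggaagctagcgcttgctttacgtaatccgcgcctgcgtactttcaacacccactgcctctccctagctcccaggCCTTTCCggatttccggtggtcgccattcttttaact
Rpl36a, chrX:134585564-134585683, plus strand: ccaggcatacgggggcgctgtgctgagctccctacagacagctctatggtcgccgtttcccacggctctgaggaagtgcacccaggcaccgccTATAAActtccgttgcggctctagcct
Rpl36al, chr12:69184038-69184157, minus strand: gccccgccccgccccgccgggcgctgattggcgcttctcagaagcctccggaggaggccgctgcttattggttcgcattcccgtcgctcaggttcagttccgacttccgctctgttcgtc
Rps4x, chrX:102189362-102189481, minus strand: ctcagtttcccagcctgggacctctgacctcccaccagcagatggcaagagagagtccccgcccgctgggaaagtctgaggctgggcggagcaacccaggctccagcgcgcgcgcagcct
Rps28, chr17:33824533-33824652, minus strand: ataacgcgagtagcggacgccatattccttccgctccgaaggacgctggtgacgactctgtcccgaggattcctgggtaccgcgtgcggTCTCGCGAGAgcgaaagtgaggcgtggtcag
Rpl27a, chr7:109519105-109519224, plus strand: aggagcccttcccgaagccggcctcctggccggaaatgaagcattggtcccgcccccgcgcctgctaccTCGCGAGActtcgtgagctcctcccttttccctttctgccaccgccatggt
Rps28 and Rpl27a are shown as the 2 members of highest level in control spermatogonia that hold TCTCGCGA in this stretch. RefSeq gave windows from 250 bases before to 50 after the start for 64 of the 84 members, 76 windows in all, among 32851 windows of the genome. CCGGAAG was found in 35.5% of the members' windows and in 8.86% of all windows. TCTCGCGA was found in 15.8% of the members' windows and in 0.995% of all, and CCTTTCC in 23.7% and 9.84%. The TATA box went the other way, with 9.21% of the members' windows and 13.6% of all. A run of at least 7 pyrimidines on the gene's strand that starts within 10 bases of the start was found in 40.8% of the members' windows and in 16.2% of all. The motifs other than this run were searched on both strands, all were chosen with the sequences in view, and a match describes letters only.

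In sorted cKIT+ spermatogonia, the start window of 56 of these 64 members (87.5%) overlapped an ATAC peak in all 5 libraries, against 29.7% of 20267 genes with a window. By library, between 58 and 62 of the 64 members were in a peak, against 31.8% to 52.8% of all genes. Of the germ-line copies, Rpl39l was in a peak in 2 of 5 libraries and Rpl10l in 4, while Rpl10, Rpl39, Rpl36a and Rpl36al were in a peak in all 5 and the X-linked Rps4x in 3. The 2 libraries with a peak at Rpl39l had the most regions, 33250 and 40497, against 14635 to 19118 in the other 3. No ATAC library had a peak at Rpl3l, a copy of Rpl3 known from muscle, or at Rps25, whose RNA in spermatogonia stood at 913 and 1107 CPM in the control and cKO libraries (counts per 1000000 UMIs, the unique molecular identifiers that each stand for 1 captured RNA molecule). H3K27me3, the repressive mark that KDM6A removes, covered none of the 64 windows in any of the 5 libraries, control or cKO. The mark lay at 16.6% of all genes in at least 1 library, and the IgG library had a region at 0.266% of all genes and at none of the members.

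The single-cell libraries were split into classes by fixed marker genes among barcodes with at least 3000 UMIs. There were 11252 such barcodes in the control and 8520 in the cKO library, with median depths of 8410.5 and 8499 UMIs, and 30 barcode sequences occurred in both. Values are given throughout for the control library first and the cKO library second. The germ-cell classes were spermatogonia (177 and 153 cells), meiotic entry (243 and 92), early meiotic prophase (754 and 558), pachytene and later spermatocytes (1669 and 1329), round spermatids (1221 and 1477), transition spermatids (582 and 289), which lie between round and elongating ones, and elongating spermatids (5119 and 3714). The somatic classes were Leydig cells (101 and 98), which make testosterone, and Sertoli cells (146 and 124), the nurse cells of the tubule. Each class is a range cut from a marker score and not a discrete type, and 32 and 11 of the spermatogonia lay within a factor of 1.2 of their gate. The meiotic entry cells carried 6321 and 5424 CPM of the 10 early prophase markers, more than the 1723 and 1476 of their own 5 markers, so that name rests on the gate. Early prophase cells carried 5839 and 5471 CPM of their own 10 markers, and 4240 and 4483 of the 10 pachytene markers. Pachytene and later cells carried 4166 and 4252 of these pachytene markers, so the border between those classes rests on the gate as well. The 10 elongating spermatid markers, among them the protamines, summed to 10830 and 7421 CPM in spermatogonia and 33570 and 44090 in Sertoli cells. Free RNA was read from barcodes with 10 to 100 UMIs, where the 84 genes made up 5.70% and 5.77% of UMIs. Kdm6a itself had 209 and 34 UMIs in the germ-cell classes (1.76 and 0.380 CPM), though 3′ tags may lie outside the deleted part.

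Ribosomal protein RNA took its largest share in spermatogonia, and the share was lower in each later germ-cell class in both libraries. The 84 genes made up 11.5% and 14.3% of UMIs in spermatogonia, a mean of 12.9% ± 1.97 (SD, n = 2 libraries, which differ in genotype). The share was 7.86% and 9.61% at meiotic entry, 7.41% and 8.70% in early prophase and 5.95% and 6.67% in pachytene and later cells. It was 4.71% and 5.19% in round, 3.97% and 4.39% in transition and 3.71% and 4.02% in elongating spermatids. The last step rests on what the total holds: without mitochondrial and elongating marker genes in it, the share was 4.79% and 5.27% in round, 4.23% and 4.66% in transition and 4.73% and 5.23% in elongating spermatids, so that elongating stood above transition spermatids. With the full total, spermatogonia stood 3.10-fold above elongating spermatids in the control and 3.56-fold in the cKO library. Leydig cells held 7.45% and 8.50%, close to early prophase, and Sertoli cells 4.80% and 5.09%, in the range of round spermatids. Exact 95% binomial intervals, which cover counting error only, were narrower than the distance between the libraries in every class. These are shares of captured RNA, so fewer ribosomal protein messages and more of other RNA cannot be told apart.

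**Figure D1:**
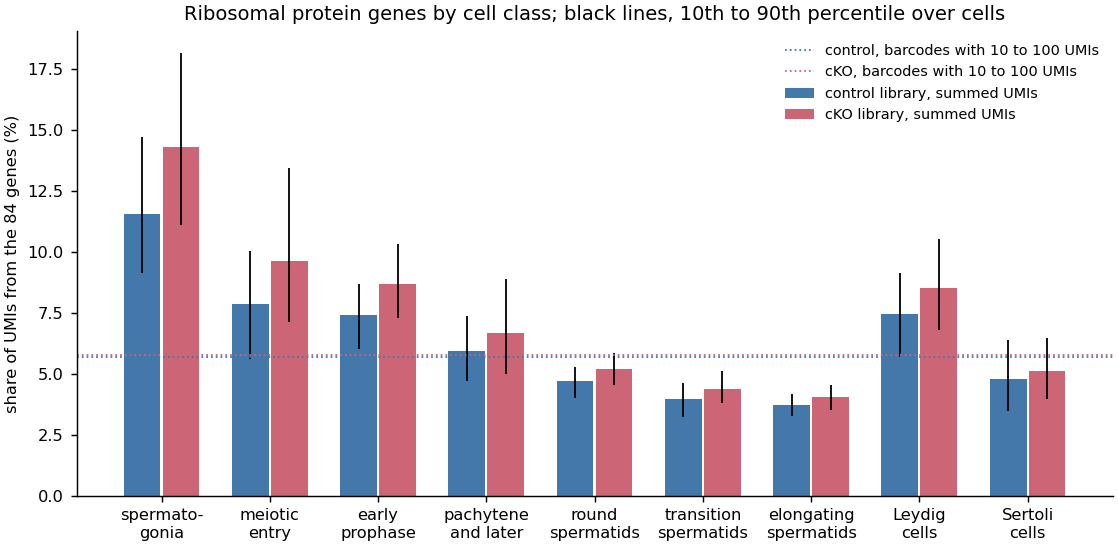
Share of all UMIs (%) that came from the 84 ribosomal protein genes, by cell class (horizontal) and library (control and cKO). Bars are summed UMIs of the class, black lines span the 10th to the 90th percentile over single cells, and dotted lines give barcodes with 10 to 100 UMIs; the share goes from 11.5% and 14.3% in spermatogonia to 3.71% and 4.02% in elongating spermatids, and the cKO bar is the higher of each pair in all 9 classes.

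The difference was spread over most of the genes. On the scale of CPM, 74 of the 84 genes were lower in early prophase than in spermatogonia in both libraries (all 18006 genes tested below: 48%), 74 were lower in pachytene and later cells than in early prophase (55.5%), 68 in round spermatids than in pachytene and later cells (50.4%), and 66 in elongating than in round spermatids (64.5%). Over these 5 classes alone, 75 genes in the control and 74 in the cKO library had their highest level in spermatogonia, against 35.2% and 35.5% of all genes. The members' share at the last step lay nearest to that of all genes. The median gene had 1407 and 1789 CPM in spermatogonia, 472 and 522 in round spermatids and 330.2 and 336 in elongating spermatids. Counts of 3′ tags do not grow with transcript length, so levels of different genes are set side by side here, but the family has many processed pseudogenes (315 in RefSeq by symbol), and each level is uncertain where reads could be split with one. Large-subunit UMIs were 1.24 and 1.23 times those of the small subunit in spermatogonia, 1.45 and 1.46 times in early prophase and 1.35 times in elongating spermatids of both libraries.

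Abundant members of spermatogonia were lower later to different extents. Rpl13, a large-subunit gene, had 3704 and 4129.5 CPM in spermatogonia, 2602 and 2685 in pachytene and later cells and 1772 and 1849 in round spermatids. Rps24, of the small subunit, had 2874 and 3303 in spermatogonia and 1408 and 1462 in round spermatids, and Rpl32 had 2762 and 3514, then 947 and 1045. Across the 84 genes, the rank correlation of levels with spermatogonia of the same library was 0.82 and 0.84 at meiotic entry, 0.72 and 0.70 in early prophase and 0.58 and 0.57 in round spermatids. Between the libraries within a class it was 0.98 or more, so the order of the genes differed between stages far more than between genotypes. These correlations are across genes that share libraries, and are descriptive.

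**Figure D2:**
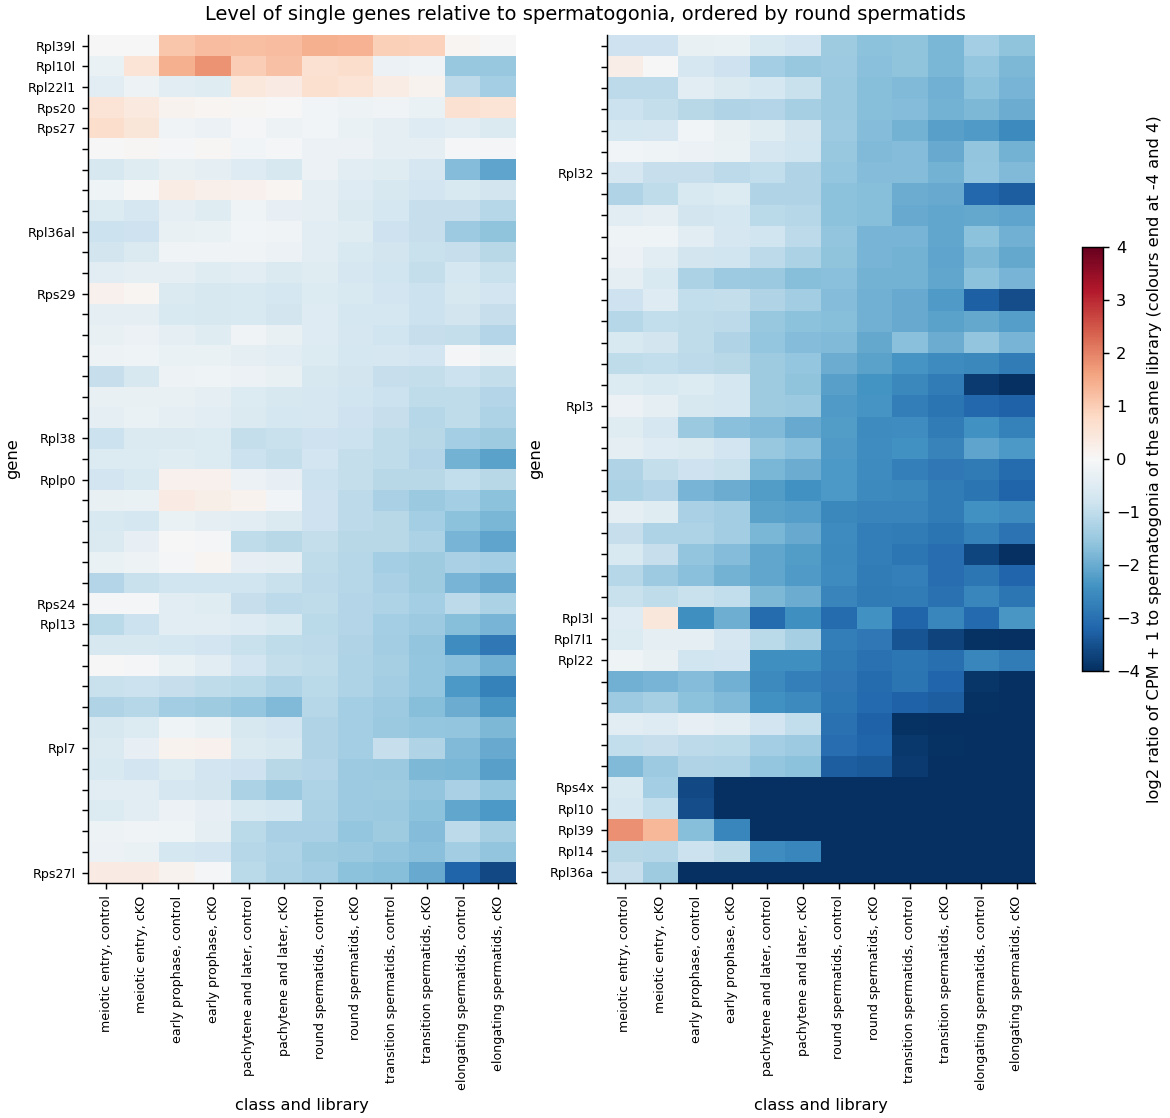
Log2 ratio of CPM (1 added) to spermatogonia of the same library, for single members (rows, ordered by round spermatids, some left out and some named) in later germ-cell classes of both libraries (columns). Blue is lower and red higher than spermatogonia; Rpl39l, Rpl10l and Rpl22l1 stand at one end of the order, and Rpl14 and the X-linked genes at the other.

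Stage differences were tested with edgeR's quasi-likelihood test on UMIs summed per class and library (9 classes and 2 libraries, the library as a block), with Benjamini-Hochberg adjustment over 18006 genes and calls at an adjusted p under 0.05. Every class has 2 samples of different genotype, and all sums come from the same 2 libraries. The p-values rest on the spread between those sums, which edgeR pools over genes, and do not measure the spread between animals. SE is the size of the log2 change divided by the square root of the test's F statistic. All 84 members passed the filter on low counts. Both scalings are given, since TMM factors, which hold most genes level, and library totals, which hold the total of UMIs level, gave opposite signs at some steps. Between spermatogonia and early prophase, 40 members were called lower and 11 higher with TMM, where 23.7% and 26.1% of all genes were, and 67 lower and 3 higher with library totals, where 33.4% and 17.9% were. Between early prophase and pachytene and later cells, 16 members were called lower and 31 higher with TMM, where 25.3% and 33.0% of all genes were, and 60 lower and 1 higher with library totals, where 43.4% and 21.5% were. With TMM the members' tallies at this step lay near the shares of all genes, and the direction with more calls turned with the scaling. Between pachytene and round spermatids, 67 members were called lower and 2 higher with TMM, where 46.2% and 30.2% of all genes were, and 54 lower and 6 higher with library totals, where 42.7% and 32.9% were. This tally was lost under a further scaling: DESeq2 called 30 members lower and 31 higher, where 32.6% and 38.3% of all genes were, and edgeR with the size factors of DESeq2 called 20 members lower and 22 higher, where 34.5% and 39.6% were. Between round and elongating spermatids, 15 members were called lower and 52 higher with TMM, where 32.5% and 35.1% of all genes were, and 50 lower and 5 higher with library totals, where 55.1% and 16.0% were. The direction turned with the scaling here too. From spermatogonia to round spermatids, 60 members were called lower and 11 higher with TMM, where 37.6% and 39.3% of all genes were, and 78 lower and 3 higher with library totals, where 46.2% and 29.1% were. A scaling shifts all genes of a contrast nearly alike, and library totals moved the median of all genes tested to between -0.73 and -0.22 on the log2 scale. The members' median log2 difference is therefore also given against that median, a value that a scaling hardly changes by construction. It was -0.22 with TMM and -0.24 with library totals at the step into early prophase, and 0.12 and 0.11 at the step into pachytene. It was -0.19 and -0.18 at the step into round spermatids, and 0.35 and 0.33 at the step into elongating spermatids. From spermatogonia to round spermatids it was -0.89 and -0.92. Other choices moved its size: the step into early prophase gave -0.33 with a stricter gate and -0.48 with cells thinned to equal depth. The step into pachytene gave 0.24 with a stricter gate, 0.06 with germ-cell stages only in the fit and 0.07 with no filter on low counts. The step into round spermatids gave -0.31 with no filter, and -0.12 with a stricter gate and with thinned cells.

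Spermatogonia also stood above a somatic class, in a contrast chosen after the data were seen. In Leydig cells against spermatogonia, 50 members were called lower and 9 higher with TMM, where 22.4% and 20.2% of all genes were, and 69 lower and 5 higher with library totals, where 28.9% and 15.1% were. DESeq2 called 41 members lower and 19 higher (17.2% and 24.5% of all genes), and edgeR with its size factors 34 members lower and 15 higher (18.7% and 25.3%). The members' median lay at -0.39 against all genes with TMM and at -0.41 with library totals (log2), and at -0.21 with cells thinned to equal depth. Of the 9 genes called higher in Leydig cells with TMM, 3 are X-linked. These were Rps4x, higher by 3.84 ± 0.15 (log2, SE, edgeR adjusted p = 7.36e-57), Rpl39, by 2.75 ± 0.13 (edgeR adjusted p = 1.11e-43), and Rpl10, by 1.85 ± 0.12 (edgeR adjusted p = 4.90e-30).

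The 4 X-linked members departed from the others: 3 of them were low in spermatogonia already, and all 4 were at a few CPM by pachytene. Rpl10, which joins the large subunit at a late step of its assembly, had 197 and 263 CPM in spermatogonia, 122 and 134 at meiotic entry, 16.0 and 11.7 in early prophase and 3.01 and 2.68 in pachytene and later cells. Round spermatids had 6.55 and 6.84, Leydig cells 632 and 669 and Sertoli cells 77.6 and 88.0. Rpl36a had 464 and 610.4 in spermatogonia, 243 and 226 at meiotic entry, 21.4 and 11.3 in early prophase and 1.15 in both libraries in pachytene and later cells. Round spermatids held 2.12 in the control, with a lower value in the cKO library, and Leydig cells 345 and 409.9. For both genes, and for Rpl39 and Rps4x below, the libraries of one class do not overlap with those of the next, from spermatogonia through pachytene. The share of all genes with such gaps was not taken, so this does not set the 4 genes apart.

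Rpl39, the gene of a very small protein near the exit tunnel of the large subunit, took another course. It had 137 and 206 CPM in spermatogonia and 489.6 and 516 at meiotic entry, its germ-cell maximum. It then had 41.6 and 32.7 in early prophase, 2.88 and 3.41 in pachytene and later cells and 4.59 and 2.78 in round spermatids, against 819 and 979 in Leydig cells. Rps4x, the small-subunit gene among the 4, had 67.5 and 69.6 in spermatogonia, 44.2 and 26.7 at meiotic entry, 4.56 and 2.50 in early prophase and 0.628 and 0.881 in pachytene and later cells. The pachytene values rest on 24 and 23 UMIs (exact 95% Poisson intervals 0.402 to 0.934 and 0.559 to 1.32 CPM, counting error only). Round spermatids had 1.26 and 1.58, Leydig cells 783 and 768 and Sertoli cells 119 and 130.4. Rps4x was thus the lowest of the 4 in spermatogonia and second to Rpl39 in Leydig cells. Free RNA held 444 and 500.2 CPM of Rps4x, 553 and 559.8 of Rpl39, 296 and 332 of Rpl10 and 183 and 192 of Rpl36a. The germ-cell levels of all 4 genes from early prophase on lie under these. So do the levels of Rps4x, Rpl39 and Rpl10 in spermatogonia and at meiotic entry. The part of free RNA in any of these levels, and in the pair shares below, was not tested.

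Between spermatogonia and early prophase, edgeR with TMM gave log2 changes of -4.56 ± 0.15 (SE) for Rpl36a (adjusted p = 7.15e-63), -3.81 ± 0.24 for Rps4x (adjusted p = 4.50e-32), -3.60 ± 0.15 for Rpl10 (adjusted p = 3.33e-50) and -1.76 ± 0.15 for Rpl39 (adjusted p = 2.24e-21). From there to pachytene and later cells it gave -3.32 ± 0.23 for Rpl36a, -3.03 ± 0.16 for Rpl39, -1.76 ± 0.33 for Rps4x and -1.74 ± 0.19 for Rpl10, with edgeR adjusted p of 1.21e-06 for Rps4x and smaller values for the other 3. The same direction was common on the X chromosome: of 646 X-linked genes tested, 356 were called lower in early prophase than in spermatogonia and 5 higher, and 280 and 22 at the next step. In round spermatids 387 X-linked genes were called higher than in pachytene and later cells and 6 lower. Among the 4 members, Rpl10 (1.04 ± 0.17, edgeR adjusted p = 1.13e-08) and Rps4x (0.79 ± 0.30, edgeR adjusted p = 0.0138) were called higher there, the latter not with cells thinned to equal depth. The differences of Rpl36a (0.44 ± 0.29, edgeR adjusted p = 0.152) and Rpl39 (0.04 ± 0.20, edgeR adjusted p = 0.870) did not pass with TMM, though that of Rpl36a passed with library totals.

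The autosomal partners made up most UMIs of their pairs once the X-linked genes were low, but their own courses differed. Rpl10l, the testis copy of Rpl10, had 84.1 and 76.7 CPM in spermatogonia, 69.4 and 112 at meiotic entry, 226 and 269 in early prophase, 168 and 175 in pachytene and later cells and 128 and 126 in round spermatids. Elongating spermatids, in which Rpl10 was also low (3.42 and 3.23), had 28.5 and 26.0 of Rpl10l, under its CPM in spermatogonia. As a share of the UMIs of the pair, Rpl10l made up 29.9% and 22.6% in spermatogonia (exact 95% binomial intervals 25.3 to 34.8 and 18.2 to 27.4), 93.4% and 95.8% in early prophase, 98.2% and 98.5% in pachytene and later cells and 95.1% and 94.9% in round spermatids. In Leydig cells it made up 3.43% and 4.97%. The summed level of the pair was 281 and 340.0 CPM in spermatogonia, 242 and 281 in early prophase and 171 and 178 in pachytene and later cells. It was lower still after meiosis, with 134 and 133 in round, 77.1 and 77.0 in transition and 31.9 and 29.3 in elongating spermatids. Sums of pairs are given on the scale of CPM alone and were not scaled with TMM. Rpl10l rose by 2.01 ± 0.14 (log2, SE) from spermatogonia to early prophase (edgeR adjusted p = 6.93e-28). From there to pachytene and later cells its edgeR change was 0.03 ± 0.10 (edgeR adjusted p = 0.832) with TMM, and -0.53 with library totals.

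Rpl39l was the more abundant gene of its pair in spermatogonia. It had 433 and 474 CPM there, 431 and 481 at meiotic entry, 929 and 1122 in early prophase, 1001 and 1126 in pachytene and later cells, 1169 and 1251 in round spermatids and 461 and 468 in elongating spermatids. Its share of the pair was 76.0% and 69.7% in spermatogonia, 46.8% and 48.3% at meiotic entry, 95.7% and 97.2% in early prophase and 99.7% in both libraries in pachytene and later cells. The dip at meiotic entry comes with the maximum of Rpl39 in that class. The summed level of the pair was 569.7 and 680.0 CPM in spermatogonia and 1004 and 1129 in pachytene and later cells. Rpl39l rose by 1.58 ± 0.13 (log2, SE) from spermatogonia to early prophase (edgeR adjusted p = 3.74e-23) and by 2.20 ± 0.13 from spermatogonia to round spermatids (edgeR adjusted p = 3.41e-36). Leydig cells held 173 and 257 of Rpl39l and free RNA 461 and 416.

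On the scale of CPM, Rpl36al, the copy of Rpl36a, had its highest germ-cell level in spermatogonia, like Rpl36a itself. With TMM, Rpl36al was called higher in round spermatids than in spermatogonia, by 0.31 ± 0.12 (log2, SE, edgeR adjusted p = 0.0123). The sign of this change turned with library totals. It had 512 and 572 CPM in spermatogonia, 281 and 323 at meiotic entry, 419 and 480.3 in early prophase, 473 and 518 in pachytene and later cells, 374 and 406 in round spermatids and 187 and 186 in elongating spermatids. Unlike Rpl10l and Rpl39l it was also abundant in Leydig cells, with 562 and 604. Its share of the pair went from 52.5% and 48.4% in spermatogonia to 95.1% and 97.7% in early prophase and 99.8% in both libraries in pachytene and later cells, and was 61.95% and 59.6% in Leydig cells. The summed level of the pair was 976 and 1182 CPM in spermatogonia and 474 and 519 in pachytene and later cells. On the scale of CPM this pair, unlike that of Rpl39, was thus lower in sum. Rps4x had no measured partner among the 84 genes.

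**Figure D3:**
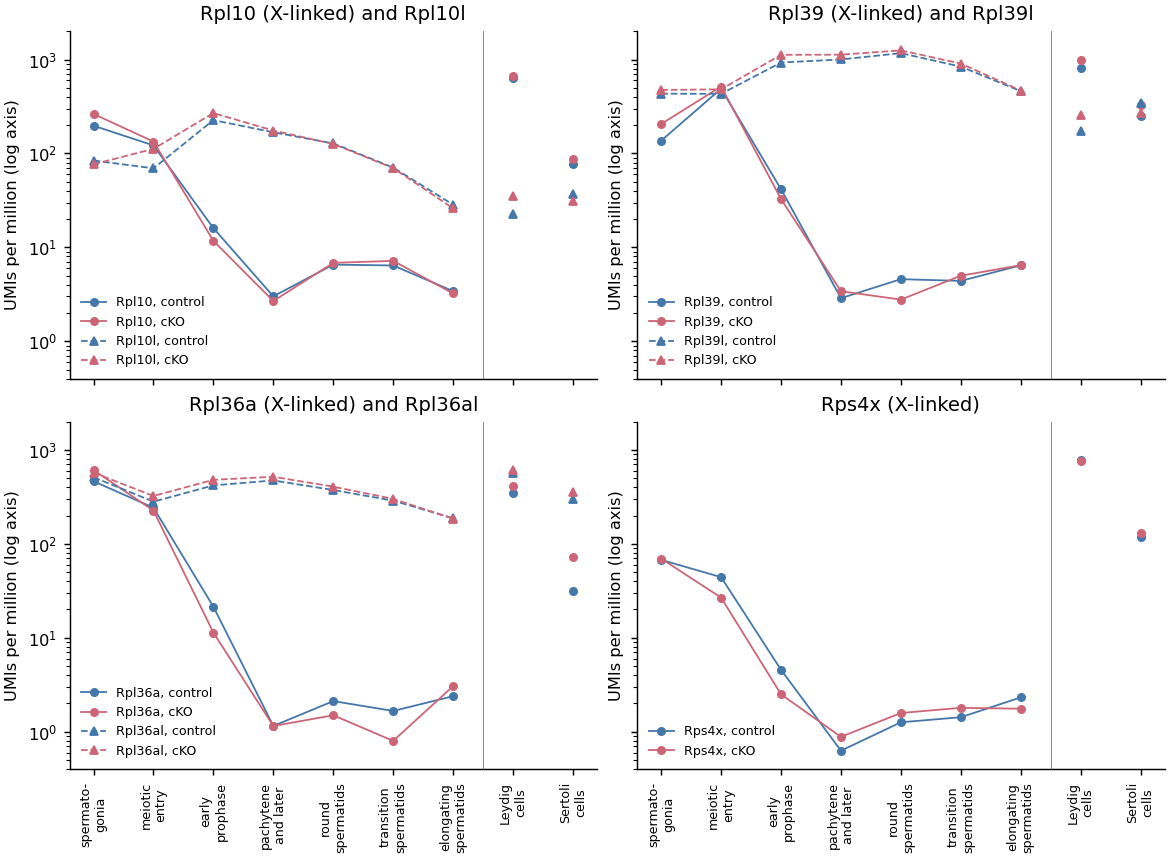
CPM (log axis) of the X-linked Rpl10, Rpl39, Rpl36a and Rps4x (solid lines) and of the autosomal Rpl10l, Rpl39l and Rpl36al (dashed lines) by cell class and library (control and cKO), with somatic classes right of the grey line. In pachytene and later cells the X-linked genes lie at 3.41 or less while the partners lie between 168 and 1126.

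Among autosomal pairs, Rpl22 and Rpl22l1 exchanged places. Rpl22 had 973 and 1105 CPM in spermatogonia, 564 and 643 in early prophase, 177 and 203 in pachytene and later cells and 136 and 139.8 in round spermatids. Rpl22l1 had 291 and 318, 213 and 226, 389 and 397, and last 456 and 465 in the same classes. Rpl22l1 thus made up 23.0% and 22.3% of the pair in spermatogonia, 27.5% and 26.0% in early prophase, 68.7% and 66.2% in pachytene and later cells, 77.1% and 76.9% in round spermatids and 47.2% and 43.3% in elongating spermatids. The exchange falls between the gated classes of early prophase and pachytene, a class later than in the pair of Rpl10. At that step Rpl22l1 rose by 1.39 ± 0.11 (log2, SE, edgeR adjusted p = 1.49e-24) and Rpl22 changed by -1.11 ± 0.11 (edgeR adjusted p = 2.40e-18). Rps27l had 443 and 581 CPM in spermatogonia and 47.4 and 47.1 in elongating spermatids, while Rps27 had 760.3 and 1069.5, then 565 and 712. Rpl7l1, a nucleolar relative of Rpl7, had 87.8 and 106 in spermatogonia and 12.1 and 13.7 in round spermatids, and Rpl7 had 624 and 759, then 270.3 and 295. Rpl3l was the lowest member, with 11 and 5 UMIs in spermatogonia, where Rpl3 had 1011 and 859.

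Of the autosomal members with 20 CPM or more in spermatogonia, Rpl14 had the largest decline to round spermatids. It had 1554 and 1946 CPM in spermatogonia, 718 and 890.0 at meiotic entry, 849 and 965 in early prophase, 274 and 319 in pachytene and later cells and 33.2 and 33.3 in round spermatids. The edgeR change from spermatogonia to round spermatids was -4.93 ± 0.13 (log2, SE, adjusted p = 1.92e-77), at -4.16 against the members' median. Rpl3l, under 20 CPM from the start, had a change of -4.97 ± 0.77 (edgeR adjusted p = 2.92e-09). The start window of Rpl14 was in an ATAC peak of spermatogonia in all 5 libraries. At the other end, Rps20, a small-subunit gene, had 1596 and 1813 CPM in spermatogonia and 1493 and 1582 in round spermatids. Elongating spermatids had 2443 and 2626. On the scale of CPM, Rps20 was the only member with its highest level in the last of the 5 classes. With TMM, 52 members were called higher in elongating than in round spermatids, so this place rests on the scale. The change of Rps20 from spermatogonia to round spermatids was 0.63 ± 0.13 with TMM (edgeR adjusted p = 4.38e-06), and -0.15 with library totals. Rps27 likewise had 0.59 ± 0.12 (edgeR adjusted p = 5.63e-06) with TMM and -0.19 with library totals. On the scale of CPM, Rpl7, Rpl11, Rpl9, Rplp0 and Rpl10l had their highest level in early prophase in both libraries. For Rplp0, the scaffold of the ribosomal stalk, named here after its values were seen, that level was 2366 and 2847 against 2109.8 and 2505 in spermatogonia.

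The other lists of the translation machinery gave different tallies. Of 46 ribosome biogenesis genes, 34 were called lower and 8 higher in round spermatids than in spermatogonia with TMM, with a median log2 change of -2.08, where 37.6% of all genes were called lower and 39.3% higher. The members' median was -0.77 and that of all genes 0.12. Ncl, the gene of the nucleolar protein nucleolin, had 2104 and 2099 CPM in spermatogonia and 21.0 and 15.2 in round spermatids, and Fbl, which encodes the rRNA methyltransferase fibrillarin, had 329 and 370.3, then 33.2 and 33.0. Of the 14 genes of the TOR pathway list, 13 were called lower under both scalings. The other, Larp1, whose product binds the pyrimidine tract of ribosomal protein messages, had 154 and 128 in spermatogonia and 148 and 122 in round spermatids, and was called higher with TMM only. Of 78 mitochondrial ribosomal protein genes 43 were called lower and 27 higher, with a median of -0.56. The 32 initiation factors tested had 12 lower and 16 higher, and the 8 elongation factors 4 lower and 2 higher, which became 22 and 4, and 8 and 0, with library totals, where 46.2% of all genes were called lower and 29.1% higher. The share of initiation factors called lower with TMM was thus at the level of all genes. Among proteins bound to the ribosome, Rack1 had 637 and 781 CPM in spermatogonia and 43.1 and 48.3 in round spermatids. Fau, whose product is cleaved to give a small-subunit protein, had 1873 and 2248, then 1089 and 1158.

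The cKO library had a larger share of ribosomal protein RNA than the control library in every class, germ-cell and somatic. With 1 library per genotype there is no replicate check and no test. The summed share of the cKO was 1.24 times that of the control in spermatogonia, 1.22 times at meiotic entry, 1.17 times in early prophase and 1.12 times in pachytene and later cells. It was 1.10 times in round, 1.11 times in transition and 1.08 times in elongating spermatids. In Leydig and Sertoli cells, which Ddx4-Cre does not target, it was 1.14 and 1.06 times. The excess was also present in these somatic classes. Their intact Kdm6a is inferred from the Cre driver, since Kdm6a was counted in the germ-cell classes only. The genotype and the library cannot be told apart.

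Most single genes shared this direction. Among members with 20 CPM or more in the mean of both libraries, the log2 ratio of cKO to control (1 CPM added) was above 0 for 82 of 83 in spermatogonia, where 40.3% of all such genes were above 0, for 76 of 78 in round spermatids (52.3%), for 60 of 78 in elongating spermatids (39.4%), for 78 of 83 in Leydig cells (48.8%) and for 53 of 83 in Sertoli cells (42.8%). The members' median was 0.31 in spermatogonia, 0.10 in round spermatids and 0.17 in Leydig cells, against -0.09, 0.01 and -0.01 for all genes. Of 78 members with a value in all 9 classes, 43 were above 0 in all 9 and none was below 0 in all. Of 2423 genes with such values, 7.8% were above and 12.7% below 0 in all 9, which come from the same pair of libraries. The differences were small. Past a fold of 1.5 lay 1 member in spermatogonia, upward (background 2.73% of genes higher and 10.2% lower), 3 upward and 1 downward at meiotic entry (9.82% and 14.8%), 1 upward in Leydig cells (10.7% and 12.7%) and 1 upward in Sertoli cells (4.35% and 11.5%). No member passed it in early prophase (0.094% higher and 3.4% lower), in pachytene and later cells (0.106% and 1.86%), or in round (0.0724% and 2.03%), transition (0.306% and 2.54%) and elongating spermatids (0.0516% and 2.5%).

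Other values also differed between the libraries. Spermatogonia had a median of 6691 and 5750 UMIs per cell, a median mitochondrial share of 5.36% and 6.86%, and 1685 and 2004 CPM of the 12 spermatogonial markers, 5 of which were lower in the cKO. All 10 round spermatid markers were lower in cKO spermatogonia (586 and 411 in sum), as were all 10 elongating spermatid markers (10830 and 7421). Leydig markers in these cells summed to 25.5 and 14.1, with 2 of 7 at 0 in each library, and Sertoli markers to 122 and 138, with 1 of 10 at 0. Without mitochondrial and elongating marker genes in the total, the members' shares in spermatogonia were 12.3% and 15.5%. They were 11.9% and 14.9% with free RNA subtracted at a set 10% of UMIs, and 11.9% and 14.7% with a stricter gate. The 10% was the same in both libraries, so the subtraction cannot remove a part of free RNA that differs between them. Mitochondrial ribosomal protein genes had median log2 ratios of 0.201 in spermatogonia and 0.192 in Leydig cells, 0.105 in round and 0.0540 in elongating spermatids and 0.0189 in Sertoli cells. The other translation lists had lower medians in spermatogonia, with 0.171 for elongation factors, 0.0832 for ribosome biogenesis, 0.0154 for initiation factors and -0.0705 for the TOR pathway. In Leydig cells these were -0.0261, 0.155, 0.0395 and -0.113 in the same order. The TOR pathway median was under 0 in every class. In Leydig cells the median depth was 8248 and 6664.5 UMIs, the 10 pachytene markers summed to 632 and 1070.0 CPM, and all 10 elongating markers were lower in the cKO (21310 and 15230). In Sertoli cells the median depth was 4511.5 and 6876 UMIs, all 10 early prophase markers were lower in the cKO (679 and 324), as were all 10 round spermatid markers (840.3 and 532), and the elongating markers summed to 33570 and 44090, with 4 of 10 lower. All 10 elongating markers were also lower in the cKO at meiotic entry (14890 and 9756), in early prophase (8048 and 6015), in pachytene and later cells (4808 and 4197) and in round spermatids (12350 and 10060), and 9 of 10 in transition spermatids (58010 and 55810). In elongating spermatids 4 of the 10 were lower (210600 and 227400), as were all 10 round spermatid markers (1219 and 1082). The part of cell composition, free RNA and depth in the ratio of cKO to control was not tested.

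A few genes had high ratios in class after class. Ordered by the median log2 ratio over the 9 classes, an order made after the values were seen, the highest were Rpl38 (0.36), Rps29 (0.35), Rps27 (0.33), Rpl37a (0.33), Rps21 (0.33), Rpl36 (0.29) and Rps28 (0.28), where the 78 members had a median of 0.15. Rpl6 (0.28) came next. Rps29 had 2502 and 3341 CPM in spermatogonia, 1701 and 2185 in round spermatids, 1919 and 2479 in Leydig cells and 1984 and 2112 in free RNA. Rpl38 had 1699 and 2177, 948 and 1209.5, 1147 and 1718, and last 1099 and 1145 in the same order. Both were above 0 in all 9 classes, from 0.27 to 0.42 for Rps29 and from 0.23 to 0.63 for Rpl38. In free RNA their log2 ratios were 0.09 and 0.06, where the 78 members had a median of 0.02.

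At the low end of the cKO ratio, round spermatids had log2 ratios of -0.02 for Rpl10l, with 128 and 126 CPM, and near 0 for Rpl10a, with 302 and 301, and Rps3a1, with 219 in both libraries.

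Among members with 20 CPM or more in spermatogonia, Rpl10l was the one with a ratio under 0, at -0.13, on 112 and 76 UMIs with overlapping counting intervals (69.2 to 101 and 60.4 to 96.0 CPM). Rpl3l, under that level, had 8.26 and 5.04 CPM. Rps4x had a ratio of 0.04 there and Rpl22l1 one of 0.13. The highest was that of Rpl39 (0.59), on 182 and 204 UMIs with intervals of 117 to 158 and 179 to 236 CPM, followed by Rps21 (0.50) and Rps28 (0.50). Early prophase went the other way for the X-linked genes, all 4 of which had a lower level in the cKO there, with 41.6 and 32.7 CPM for Rpl39, 21.4 and 11.3 for Rpl36a, 16.0 and 11.7 for Rpl10 and 4.56 and 2.50 for Rps4x. This was the direction of most genes: 78.6% of the 646 X-linked genes tested and 59.5% of all genes tested were lower in the cKO there. Of the 10 early prophase markers 9 were also lower in the cKO in that class (5839 and 5471 in sum), and the part of stage in this difference was not tested.

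**Figure D4:**
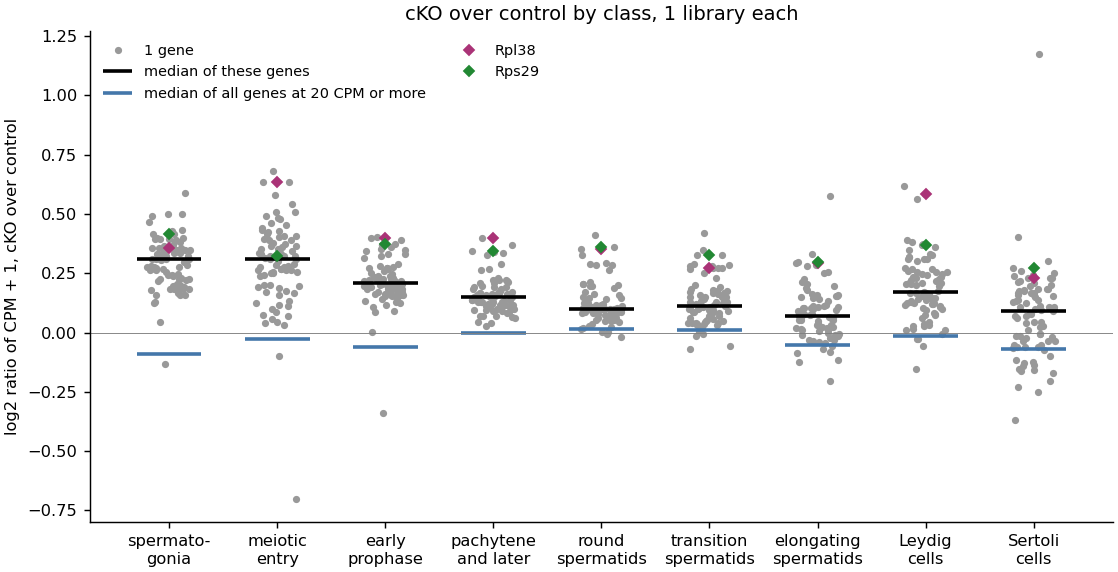
Log2 ratio of CPM (1 added), cKO over control, for each member with 20 CPM or more (points) by cell class, from 1 library per genotype and with no error. Bars give the members' median (0.31 in spermatogonia, 0.10 in round spermatids, 0.17 in Leydig cells) and the median of all genes, and diamonds mark Rpl38 and Rps29, which lie above 0 in all 9 classes.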

How the data were processed

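Single-cell values are UMI counts as deposited, made with Cell Ranger 4 per the file headers, on mm10 and with Seurat 4.1.0 listed in the submitters' processing notes; every barcode was deposited, and how reads that match several genes were handled is not stated. ATAC and CUT&Tag regions were called by the authors library by library, and the deposited peak files hold a fold enrichment ratio, a −log10 q-value and, for CUT&Tag, a signal per region, of which only positions were used. Bowtie2, MACS2, SEACR, SAMtools and deepTools are listed in those notes. Bulk transcript tables were not used here, since their transcript IDs are not paired with genes.

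Barcodes with at least 3000 UMIs were put in classes by marker sums per 10000 UMIs, with no doublet caller. UMIs were summed per class and library (at least 20 cells in both, so macrophages were left out) and tested with edgeR 4.0.16 in R 4.3.3 (TMM, filterByExpr, the library as a block, 8 residual degrees of freedom). The fit was tested on simulated data in which both libraries of a class shared a profile. That test does not cover the difference in genotype between the libraries. DESeq2 1.42.0, limma 3.58.1, Python 3.11.15, numpy 2.4.6, scipy 1.17.1, pandas 2.3.3 and matplotlib 3.10.9 were also used. The libraries hold 229882646 and 172368722 UMIs in all barcodes. Levels are CPM, counts per 1000000 UMIs of the class, with exact 95% Poisson or binomial intervals for counting error. For cKO against control, 1 CPM was added before the log2 ratio. Start windows came from RefSeq on GRCm38.p6, the same assembly as mm10.

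The text names the X-linked members and the members of 7 paralog pairs with both genes measured, the 5 highest and 5 lowest in control spermatogonia, the 5 with the largest rise and the 5 with the largest fall relative to the members from spermatogonia to round spermatids, and the 3 at each end of the cKO ratio in spermatogonia and round spermatids. Some members that this rule names are not reported here, though counts, sums and medians include them. The members and lists were chosen with earlier results of these data known. Alternatives covered scaling, filters, the block, gates, depth, free RNA and the barcodes above the 98th percentile of UMIs.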

Additional observations from a re-analysis of the deposited data

How the results depend on the processing

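Of 47 alternatives for counts of called members, taken in the direction with more calls in each contrast, 33 stayed within 1.5 times. Counts in the other direction are not in this tally, and several of those below moved further. Shares in parentheses are those of all genes tested. In early prophase against spermatogonia, 71 members were called lower with DESeq2 (32.1%), 64 with its size factors in edgeR (32.5%) and 67 with library totals (33.4%). In pachytene against early prophase, 12 were called higher and 49 lower with DESeq2 (23.8% and 33.8%), 6 and 37 with its size factors (25.6% and 36.4%), 1 and 60 with library totals (21.5% and 43.4%), 18 and 11 without the library block (29.5% and 21.7%) and 18 and 20 with cells thinned to 3000 UMIs (29.0% and 25.2%). In round spermatids against pachytene, 30 were called lower and 31 higher with DESeq2 (32.6% and 38.3%), 20 and 22 with its size factors (34.5% and 39.6%), 42 and 14 with germ-cell stages only in the fit (38.6% and 37.7%), 38 and 15 with a stricter gate (40.2% and 36.4%) and 29 and 12 with thinned cells (33.7% and 32.9%), against 67 and 2 with TMM. In elongating against round spermatids 5 were called higher with library totals (16.0%). From spermatogonia to round spermatids, higher calls were 21 with germ-cell stages only (43.8%), 20 with a stricter gate (42.8%), 18 with no filter (28.7%), 7 with the size factors of DESeq2 (37.0%), 7 without the library block (38.1%) and 3 with library totals (29.1%), against 11 with TMM. In Leydig cells against spermatogonia, higher calls were 19 with DESeq2 (24.5%), 15 with its size factors (25.3%) and 5 with library totals (15.1%), against 9 with TMM. Of 402 alternatives for fits of named genes, 8 turned in sign with a call in the main or the other fit: Rpl10l from early prophase to pachytene (-0.32 with DESeq2, -0.32 with its size factors, -0.53 with library totals), and, from spermatogonia to round spermatids, Rpl36al (-0.47), Rps20 (-0.15) and Rps27 (-0.19) with library totals, Rpl13 (0.014) with a stricter gate and Rps24 (0.0014) with germ-cell stages only. Turns in sign with a call in neither fit are not in this tally. The falls of the X-linked members to early prophase and on to pachytene passed under every alternative fitted. The cause was not tested.

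Mean shares of the members moved by more than the spread between libraries in 5 of 72 alternatives. Without mitochondrial and elongating marker genes in the total, the share was 4.98% in elongating spermatids, 8.89% in Leydig cells and 6.005% in Sertoli cells. With free RNA subtracted it was 3.88% in transition and 3.55% in elongating spermatids. That subtraction took free RNA to be 10% of UMIs in every class, a value that was set and not estimated. The members' median log2 ratio of cKO to control moved in 23 of 45 alternatives over the 9 classes and stayed above 0 in all 45. It was 0.40 in spermatogonia and 0.087 in round spermatids when scaled to the median gene, and 0.29, 0.092 and 0.19 in spermatogonia, round spermatids and Leydig cells with a stricter gate. For cKO against control, no paired analysis was possible because each genotype has 1 single-cell library; the stage fits took the library as a block. Leaving out a library leaves 1 sample per class and no test, so both libraries are printed throughout. X-linked levels of a few CPM are limited by depth.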
